A study of Mus with 8 samples.

Results

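The genes described here build and break down the lipid droplet, the organelle in which fat cells store triglyceride. They were chosen by symbol: Plin1, Plin2, Plin3, Plin4, Cidea, Cidec, Pnpla2, Lipe, Abhd5 and G0s2, 10 of the 24013 genes in the count table. RNA was sequenced from mouse 3T3-L1 cells, an established line of preadipocytes that turn into fat cells when given a hormone cocktail. The question of the study was whether the homeodomain protein Prep1 restrains this differentiation. Control cells (C cells) had been infected with a lentivirus carrying a scrambled short hairpin RNA, and Prep1 down-regulated cells (P cells) with one carrying a hairpin against Prep1, both under puromycin selection. Both were taken uninduced, at day −2, when they were growing in DMEM with calf serum and had received no cocktail, and induced, at day 1, which was 1 day after dexamethasone (1 µM), 3-isobutyl-1-methylxanthine (0.5 mM) and insulin (1 µg/ml) in 10% FBS. Each of the 4 conditions had 2 replicas. Hormones, serum, confluence and time all changed between day −2 and day 1 and cannot be told apart, and whether the infected cells came from 1 clone or many is not stated.

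A lipid droplet is a core of neutral lipid under a single layer of phospholipid that is covered by proteins. Perilipins form its coat: Plin2 and Plin3 are made in most cell types, while Plin1 and Plin4 belong to fat cells, where Plin1 holds lipolysis in check until it is phosphorylated. The CIDE proteins Cidea and Cidec sit where droplets touch and let the smaller one empty into the larger, which gives the single large droplet of white fat. Lipolysis runs the other way. Pnpla2 (adipose triglyceride lipase) takes the first fatty acid from triglyceride and Lipe (hormone-sensitive lipase) the next. Abhd5 is the coactivator of Pnpla2, and it is bound by Plin1 in resting fat cells. G0s2 is a small inhibitor of Pnpla2.

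The 8 libraries held between 20428816 and 27614353 counts. Prep1 itself (Pknox1) was lower in P cells at both times, with 17.8 ± 0.739 against 27.3 ± 1.16 CPM (counts scaled to a common library size) at day −2 and 23.7 ± 0.125 against 37.3 ± 1.11 CPM at day 1 (mean ± SD, n = 2 each). The ratio of P to C cells for Pknox1 was 0.652 at day −2 and 0.636 at day 1 (edgeR adjusted p = 0.0558 and 0.0575). By the rule given below it was not called, as neither ratio was below 0.5. The 2 replicas of uninduced P cells stood apart from each other. The SD of the log2 difference between them was 0.795 over 5600 well expressed genes, against 0.121 to 0.261 in the other 3 conditions. Where leaving out 1 of these replicas changed a call or moved a called value by over 1.5 times, the values without it stand beside the result. Of the preadipocyte markers, Pdgfra was at 146 to 702 CPM and Dlk1 at 645 to 2483 CPM over the libraries, while Cd34 was at 0.107 to 1.77 CPM. The fat cell marker Adipoq had 3 counts or fewer in each library of C cells but 16.1 and 19.4 CPM in induced P cells. Summed over 9 markers of mature fat cells, the level was 80.1 to 80.5 CPM in uninduced C cells and 225 to 247 CPM in uninduced P cells. It was 169 to 170 CPM in induced C cells and 552 to 593 CPM in induced P cells. The gene Lpl made up most of each sum. It was at 57.7 to 58.6 CPM in uninduced C cells and 183 to 200 CPM in uninduced P cells. At day 1 it was at 127 to 133 CPM in C cells and 375 to 417 CPM in P cells.

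Across the members, the data showed 3 kinds of behaviour. Lipe and Abhd5 rose with induction in C and P cells alike, 4.71-fold and 6.57-fold in C cells and 4.83-fold and 4.76-fold in P cells. Plin1, Cidec, Pnpla2 and G0s2 were higher in induced P cells than in induced C cells, and of these Plin1 was already higher before induction. The general perilipins Plin2 and Plin3, and Plin4, stayed within 2-fold in each comparison. Cidea was at 0 or 1 count in every library. These are bulk RNA levels, so a larger share of cells on the way to fat cells and more RNA per cell cannot be told apart.

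**Figure D1:**
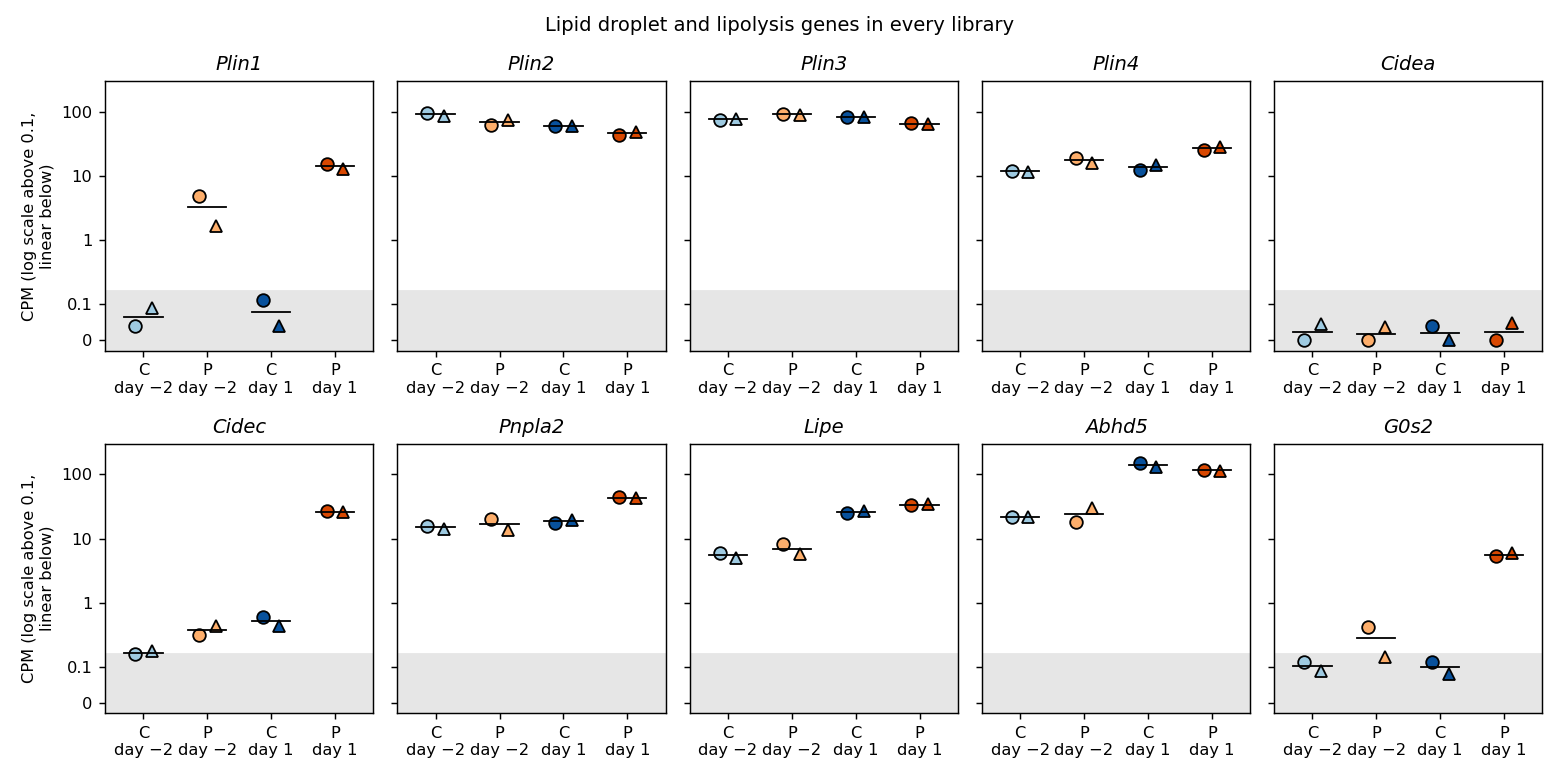
Level of each of the 10 genes in CPM (log scale above 0.1, linear below) in the 8 libraries; circles are replica 1, triangles replica 2 and lines the mean. In the grey band a library holds about 3 counts or fewer; Plin1, Cidec and G0s2 lie well above it in induced P cells, at 12.7 to 15.5, 26.0 to 26.8 and 5.30 to 5.88 CPM, while Cidea stays in it throughout. Levels are not divided by gene length, so they compare libraries within a panel and not genes.

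A gene was called when edgeR's quasi-likelihood test gave a Benjamini-Hochberg adjusted p under 0.1 over all 13339 genes tested and the ratio was above 2 or below 0.5. Of the 10 members, 9 passed the filter on low counts and Cidea did not. Plin1, Cidec and G0s2 passed it through libraries of P cells, where they are high, so a count that includes them is given as a description. In C cells, 3 members were called higher at day 1 than at day −2 (Cidec, Lipe, Abhd5) and 0 lower, where 20.4% of all genes tested were called, 10.7% higher and 9.68% lower. In P cells, 6 were called higher (Plin1, Cidec, Pnpla2, Lipe, Abhd5, G0s2) and 0 lower, where 18.0% of all genes were called, 7.65% higher and 10.4% lower. Between P and C cells, 1 was higher at day −2 (Plin1) and 4 at day 1 (Plin1, Cidec, Pnpla2, G0s2), and 0 were lower at either time, beside 6.98% of all genes at day −2 (4.83% higher, 2.15% lower) and 4.06% at day 1 (1.83% higher, 2.23% lower). The median log2 ratio of the 9 tested members was 0.31 for induction in C cells and 2.13 for induction in P cells. It was 0.34 for P against C cells before induction and 0.98 at day 1. Both medians for induction fell on Plin1, which had 3 counts or fewer in each library of C cells. As the medians include Plin1, Cidec and G0s2, they too are only a description. The median of all genes tested lay between −0.01 and 0.02. The comparisons share libraries in pairs and are not independent of each other.

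**Figure D2:**
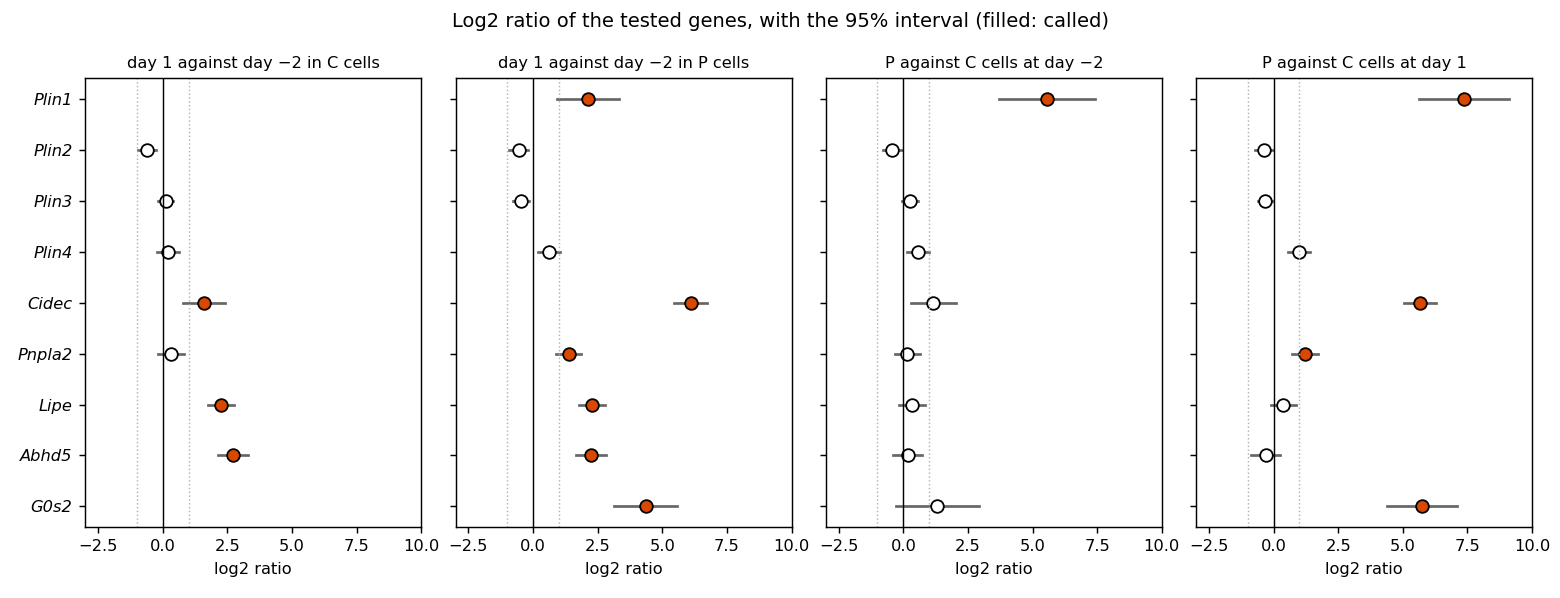
Log2 ratio of each tested gene in the 4 comparisons, with its 95% interval; filled points were called and dotted lines mark ratios of 0.5 and 2. Lipe and Abhd5 are called in both inductions and in neither comparison of P with C cells; Cidec reaches 6.10 for induction in P cells, and Plin1 7.38 for P against C cells after induction. Plin1 and G0s2 are not drawn for induction in C cells, where each library held 3 counts or fewer of them.

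Among the coat genes, Plin1 separated P from C cells most widely. C cells had 0.0398 and 0.0886 CPM at day −2 (1 and 2 counts) and 0.118 and 0.0398 CPM at day 1 (3 and 1 counts), too few for a fold to be given for the induction there. In P cells it was at 4.85 and 1.68 CPM at day −2 (91 and 47 counts) and at 15.5 and 12.7 CPM at day 1 (362 and 271 counts). So every library of P cells lay above every library of C cells, and uninduced P cells had more Plin1 RNA than induced C cells. At day −2 the ratio of P to C cells was 46.8, with an exact 95% counting interval of 15.7 to 230 that covers counting error only, and at day 1 it was 178 (69.2 to 656). The log2 ratios were 5.56 ± 0.78 (SE) with an adjusted p of 0.0109 and 7.38 ± 0.74 with an adjusted p of 0.00505 (edgeR). Within P cells Plin1 rose by 2.13 ± 0.50 on the log2 scale (edgeR adjusted p = 0.0265).

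The size of the Plin1 changes depended on the uninduced P cells. Without replica 1 or replica 2 of that condition, the log2 ratio at day −2 was 4.63 or 6.15 and the induction in P cells 3.06 or 1.54, all still called by edgeR. The call at day −2 was lost without replica 1 or 2 of uninduced C cells (adjusted p = 0.149 and 0.119, edgeR), and the call for induction in P cells without replica 1 or 2 of induced P cells (adjusted p = 0.146 and 0.111, edgeR), while the difference at day 1 stayed called in each such fit. Fitting only the 2 conditions compared also lost the call at day −2. Whether the Plin1 response of P cells differed from that of C cells could not be shown. The difference of the log2 ratios was 1.82 with a 95% interval from −1.69 to 5.33 and rests on the few counts in C cells.

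Plin2, the perilipin found on droplets in most cell types, was highest in uninduced C cells. It was at 96.0 and 85.9 CPM in uninduced C cells and 62.4 and 73.3 CPM in uninduced P cells, and at 59.2 and 59.9 CPM in induced C cells and 43.3 and 49.0 CPM in induced P cells. The replicas of induced P cells lay below those of the other 3 conditions, and those of uninduced C cells above. The ratio of day 1 to day −2 was 0.654 in C cells and 0.68 in P cells (edgeR adjusted p = 0.0274 and 0.0439), which passed on p but not on the ratio. Plin2 moved nearly alike in both, the difference of its log2 ratios being 0.05 with a 95% interval from −0.46 to 0.57.

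Plin3, which moves between the cytosol and new droplets, kept a narrow range. Its levels were 75.2 and 76.7 CPM in uninduced C cells and 93.1 and 88.2 CPM in uninduced P cells, and 81.7 and 81.9 CPM in induced C cells and 67.1 and 63.8 CPM in induced P cells. P cells thus held the highest level before induction and the lowest after it, with no overlap between conditions. The log2 ratio for induction was 0.11 ± 0.12 in C cells but −0.47 ± 0.13 in P cells, and the difference between them of −0.58 was not called (edgeR adjusted p = 0.223). That difference was called without replica 1 or replica 2 of uninduced P cells, at −0.56 and −0.62 (edgeR adjusted p = 0.0359 and 0.0042).

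Plin4, a perilipin abundant in white fat, stood just under the threshold. It was at 12.1 and 11.4 CPM in uninduced C cells and 19.1 and 16.1 CPM in uninduced P cells. At day 1 it was at 12.4 and 14.7 CPM in C cells but 25.2 and 28.3 CPM in P cells. The 4 libraries of C cells were close to each other, and every library of P cells was above them. The ratio of P to C cells after induction was 1.97, with a log2 ratio of 0.98 ± 0.18 and an edgeR adjusted p of 0.0367, so Plin4 missed the call by its ratio, and it was called, at 1.08, when libraries were scaled by their totals. The annotation places the gene Hdgfl2 across Plin4, and strand use in the counting is not stated.

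Of the fusion genes, Cidea, which belongs to brown fat and to some active white fat, had 4 counts over the 8 libraries together and was not tested. Cidec was at 0.159 and 0.177 CPM (4 and 4 counts) in uninduced C cells and at 0.32 and 0.428 CPM (6 and 12 counts) in uninduced P cells. At day 1 it was at 0.592 and 0.438 CPM (15 and 11 counts) in C cells and at 26.8 and 26.0 CPM (627 and 556 counts) in P cells. Induced P cells were far above the other 3 conditions, while uninduced P cells, at 0.32 to 0.428 CPM, lay just under induced C cells. Cidec rose 3.07-fold in C cells (counting interval 1.35 to 7.85) and 68.6-fold in P cells (43.2 to 116), by log2 ratios of 1.59 ± 0.35 and 6.10 ± 0.27 (edgeR adjusted p = 0.0171 and 1.3e-04). By p-value it ranked second of the 13339 genes for P against C cells after induction. Only induced P cells, where Cidec is high, had both libraries at the level of the filter on low counts. The rank is thus given as a description.

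Cidec was the 1 member whose response to induction was called different between P and C cells, beside 2.37% of all genes (0.435% with the larger response in P cells, 1.93% with the smaller). The log2 difference was 4.51 ± 0.50 (edgeR adjusted p = 0.013), and it was 4.31 or 4.76 without replica 1 or 2 of uninduced P cells, both still called. It lost its call without either replica of uninduced C cells or either replica of induced P cells, at 4.44 to 4.59 with an edgeR adjusted p from 0.106 to 0.143. The small rise in C cells also lost its call without replica 1 of uninduced C cells or replica 1 of induced C cells (edgeR adjusted p = 0.128 and 0.141). Before induction P cells exceeded C cells by a log2 ratio of 1.16 with a 95% interval from 0.29 to 2.02 and was not called (edgeR adjusted p = 0.182).

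**Figure D3:**
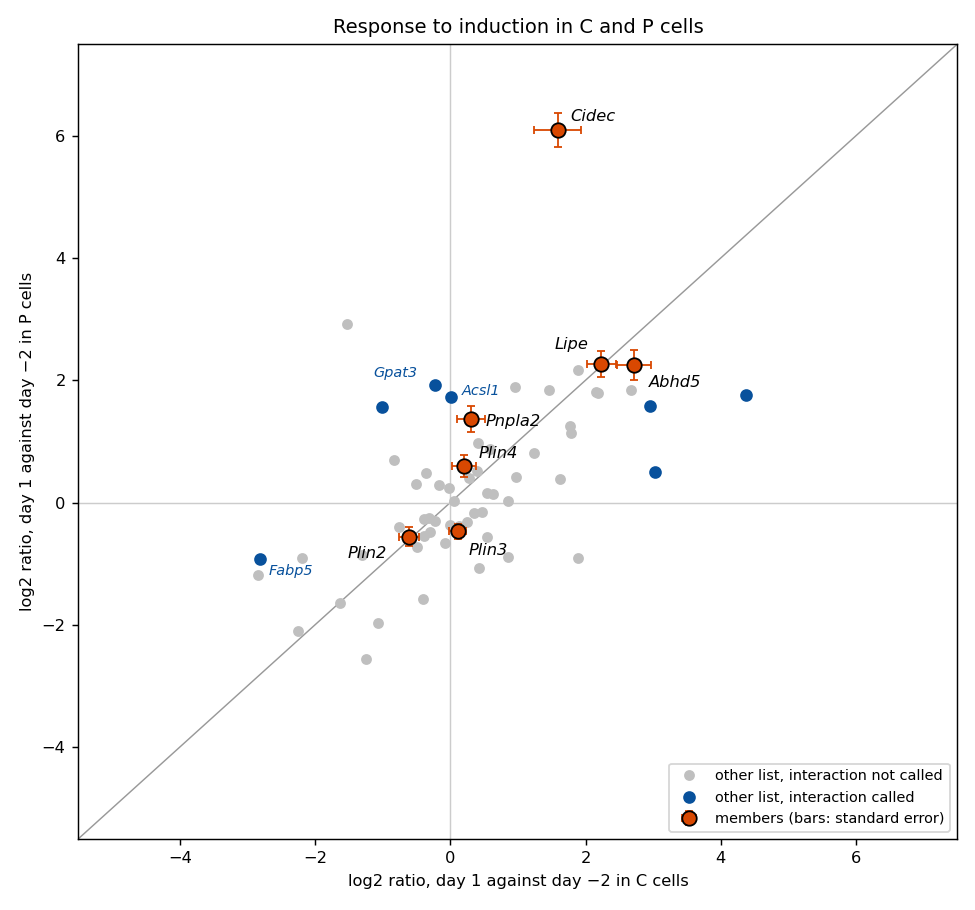
Log2 ratio of day 1 to day −2 in C cells (horizontal) and in P cells (vertical) for 7 of the 9 tested members, with standard errors, and for 58 other lipid droplet and lipolysis genes; the diagonal marks equal responses and blue points those of the 58 with a called difference. Cidec lies at 1.59 and 6.10, while Lipe lies at 2.23 and 2.27, on the diagonal; Plin1 and G0s2 are left out, as each library of C cells held 3 counts or fewer of them.

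The lipases followed different courses. Pnpla2 was at 15.8 and 14.2 CPM in uninduced C cells and 19.9 and 13.7 CPM in uninduced P cells, at 17.8 and 19.4 CPM in induced C cells, and at 43.9 and 42.7 CPM in induced P cells. The first 3 conditions ran together and induced P cells stood above them. In P cells Pnpla2 rose by 1.37 ± 0.21 on the log2 scale (edgeR adjusted p = 0.00574), against 0.31 ± 0.21 in C cells (adjusted p = 0.314). P cells exceeded C cells by 1.22 ± 0.21 at day 1 (edgeR adjusted p = 0.0285), but this call was lost without any 1 of the 4 libraries of day 1, at 1.12 to 1.27 and adjusted p from 0.194 to 0.237. The difference between the responses was 1.06 and was not called (edgeR adjusted p = 0.183); without replica 1 or 2 of uninduced P cells it was 1.33 or 0.81 and called (adjusted p = 0.00253 and 0.00404).

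Lipe was at 5.90 and 5.05 CPM in uninduced C cells and 8.09 and 5.85 CPM in uninduced P cells. At day 1 it was at 24.6 and 27.0 CPM in C cells and at 33.0 and 34.2 CPM in P cells. Both kinds of cell moved up together, and the 4 libraries of day 1 lay above the 4 of day −2. It rose by 2.23 ± 0.21 in C cells and 2.27 ± 0.21 in P cells on the log2 scale (edgeR adjusted p = 7.0e-04 and 9.0e-04). The difference between these responses was 0.04 with a 95% interval from −0.65 to 0.73. A long noncoding RNA, 4732471J01Rik, overlaps Lipe in the annotation.

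Of the regulators of Pnpla2, the coactivator Abhd5 rose strongly in both kinds of cell. It was at 21.6 and 21.7 CPM in uninduced C cells and 18.2 and 30.3 CPM in uninduced P cells, and at 153 and 132 CPM in induced C cells and 117 and 114 CPM in induced P cells. Here induced C cells were the highest. The log2 rise was 2.72 ± 0.25 in C cells and 2.25 ± 0.25 in P cells (edgeR adjusted p = 6.3e-04 and 0.0016). P and C cells were not called different at day −2 (0.17, edgeR adjusted p = 0.661) or at day 1 (−0.30, 95% interval −0.86 to 0.26, adjusted p = 0.654). The difference between responses was −0.46, and it was called, at −0.81, without replica 1 of uninduced P cells (edgeR adjusted p = 0.0137).

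The inhibitor G0s2 behaved unlike the coactivator. C cells had 0.12 and 0.0886 CPM at day −2 and 0.118 and 0.0796 CPM at day 1, which are 3 counts or fewer in each library. In P cells it was at 0.426 and 0.143 CPM at day −2 (8 and 4 counts) and at 5.30 and 5.88 CPM at day 1 (124 and 126 counts). Only induced P cells were well above the counting floor. The ratio of P to C cells after induction was 56.3 with a counting interval of 23.8 to 175, and the log2 ratio was 5.74 ± 0.58 (edgeR adjusted p = 0.00521). Within P cells G0s2 rose 21.8-fold (12.2 to 42.7), by a log2 ratio of 4.35 ± 0.52 (edgeR adjusted p = 0.00214). That log2 ratio was 5.23 or 3.70 without replica 1 or 2 of uninduced P cells.

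At day −2 the ratio of P to C cells for G0s2 was 2.44 with a counting interval of 0.801 to 8.85, and it was not called (edgeR adjusted p = 0.264). Without replica 2 of uninduced P cells it was called, at a log2 ratio of 1.97 (edgeR adjusted p = 0.0313). The P cell response exceeded that of C cells by 4.43 ± 0.98, a value that rests on 3 counts or fewer in each library of C cells and missed the threshold (edgeR adjusted p = 0.109), and it was called at 5.29 or 3.77 without replica 1 or 2 of uninduced P cells.

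The ratio of 2 genes within a library does not depend on library scaling, and setting it against the mean of uninduced C cells removes gene length. The ratio of Abhd5 to Pnpla2 was 5.92 and 4.69 times its starting value in induced C cells, against 1.84 and 1.85 times in induced P cells. At day −2 the P cell replicas lay on both sides of the starting value, at 0.633 and 1.53. So after induction coactivator RNA had gained on lipase RNA in both kinds of cell, and the gain was larger in C cells. The ratio of Lipe to Pnpla2 showed the same order, with 3.80 and 3.81 in C cells and 2.06 and 2.20 in induced P cells.

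The RNA of the inhibitor G0s2 also gained on that of Pnpla2 in induced P cells. There the ratio of G0s2 to Pnpla2 was 17.5 and 19.97 times its starting value. That starting value rests on only 3 and 2 counts of G0s2 in uninduced C cells. Induced C cells also held 3 and 2 counts, so no change is given for them. Among the coat genes, the ratio of Plin4 to Plin2 was 4.50 and 4.46 in induced P cells, 1.62 and 1.90 in induced C cells, and 2.37 and 1.69 in uninduced P cells. The ratio of Plin3 to Plin2 was between 1.43 and 1.85 in P cells at either time and in induced C cells. Relative to uninduced C cells, Plin4 RNA thus gained on Plin2 RNA in induced P cells by more than in any other condition. Plin4 itself was called in 0 of the 4 comparisons, and the proteins of the coat were not measured. With 2 replicas against 2, an exact permutation test cannot go below p = 0.333, so these ratios carry no test.

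**Figure D4:**
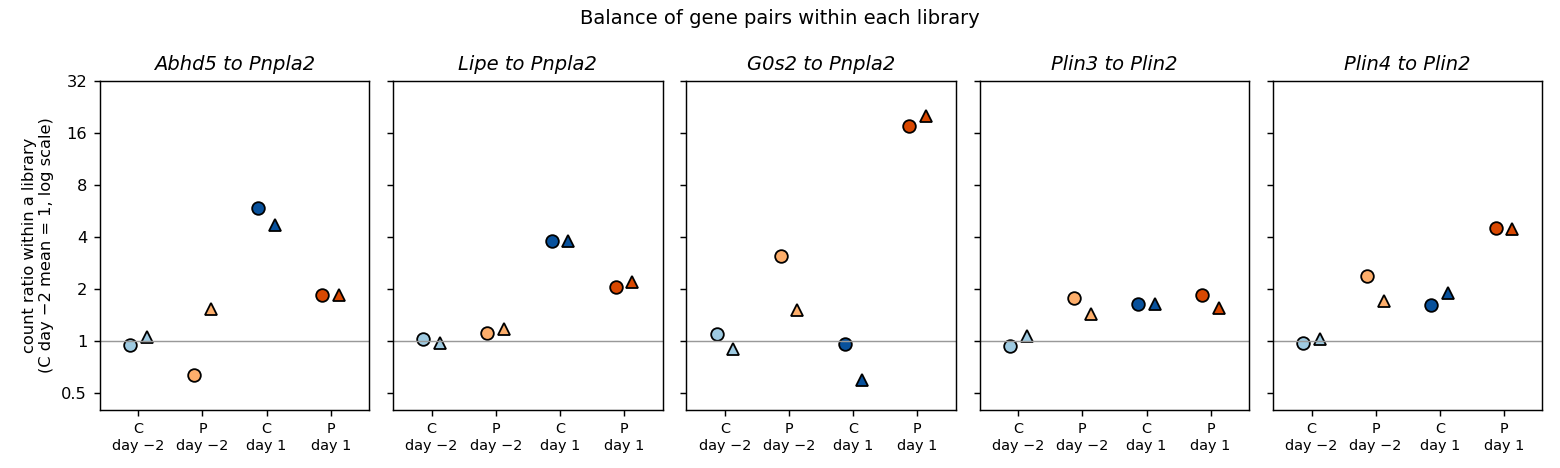
Ratio of the counts of 2 genes within each library, set to 1 at the mean of uninduced C cells (log scale); circles are replica 1 and triangles replica 2. At day 1 the ratio of Abhd5 to Pnpla2 is 4.69 and 5.92 in C cells but 1.84 and 1.85 in P cells. The ratio of G0s2 to Pnpla2 is 17.5 and 19.97 in P cells. Each library of C cells held 3 counts or fewer of G0s2, so its level set to 1 rests on few counts.

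A list of 72 other genes of the droplet and of lipolysis gave the surroundings of these changes, and 58 of them were tested. For induction, 13 were called higher and 9 lower in C cells, beside 10.7% and 9.68% of all genes, and 13 higher and 6 lower in P cells, beside 7.65% and 10.4%. Between P and C cells, 8 were higher and 1 lower at day −2, beside 4.83% and 2.15% of all genes, and 3 higher and 2 lower at day 1, beside 1.83% and 2.23%. The medians of their log2 ratios lay between −0.02 and 0.10, close to those of all genes. Several genes of mature fat cell lipolysis were too low to be tested: Mgll, which takes the last fatty acid, had 8 to 20 counts over the 2 libraries of each condition, and Plin5, Adrb3 and Aqp7 were not tested either.

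Of the 8 tested genes of droplet formation, 2 were called higher after induction in C cells and 3 in P cells, with 0 lower. The shares of all genes tested were 10.7% and 7.65% higher, and 9.68% and 10.4% lower. Fitm2, which helps droplets bud from the endoplasmic reticulum, rose by 1.45 ± 0.15 in C cells and 1.84 ± 0.15 in P cells on the log2 scale (edgeR adjusted p = 9.0e-04 and 5.7e-04). Dgat2, which adds the last fatty acid to triglyceride, rose by 2.16 ± 0.38 in C cells (edgeR adjusted p = 0.0076). In P cells Dgat2 was also called higher, at a log2 ratio of 1.81. That ratio was 2.46 or 1.33 without replica 1 or 2 of uninduced P cells. The Dgat2 call in P cells was lost in 1 of the 8 fits that leave out 1 library. Gpat3, an acyltransferase of glycerol 3-phosphate, was lower in P than in C cells before induction, at 1.89 to 2.50 against 5.72 to 6.50 CPM, and it rose in P cells by 1.93 ± 0.23 on the log2 scale, to 8.08 to 8.59 CPM (edgeR adjusted p = 0.00214 for the rise). The lower Gpat3 level before induction was not called without replica 1 or 2 of uninduced C cells (edgeR adjusted p = 0.16 and 0.117).

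Among other proteins of the droplet surface, 11 were tested. With induction 3 were called lower in C cells and 2 in P cells, beside 9.68% and 10.4% of all genes. Called higher were 0 in either, where the shares of all genes were 10.7% and 7.65%. Sqle, an enzyme of sterol synthesis that also sits on droplets, fell by 1.07 on the log2 scale in C cells and 1.96 in P cells (edgeR adjusted p = 0.00595 and 8.6e-04). Nsdhl, another sterol enzyme, fell by 1.63 in C cells and 1.64 in P cells (edgeR adjusted p = 0.0321 and 0.0374). The call in C cells was lost without any 1 of the 4 libraries of C cells, and that in P cells without either replica of induced P cells or, at −0.76, without replica 2 of uninduced P cells (−2.18 without replica 1). Acsl3, which activates fatty acids on new droplets, fell by 1.31 in C cells (edgeR adjusted p = 0.0222), a call lost without any 1 of their 4 libraries (adjusted p from 0.107 to 0.14). Between P and C cells 1 of the 11 was called at day −2 and 0 at day 1, beside 6.98% and 4.06% of all genes. That 1 was Ldaf1, the partner of seipin at sites of droplet birth, higher at day −2 by 1.16 ± 0.29 (edgeR adjusted p = 0.0725). It was 0.71 and not called without replica 1 of uninduced P cells and 1.51 without replica 2, and the call was lost in 7 of the 8 fits that leave out 1 library (edgeR adjusted p up to 0.394). Of the other hydrolases, Nceh1, which acts on cholesterol esters, fell by 2.19 in C cells, and Lipa, the lysosomal acid lipase, rose by 1.24 (edgeR adjusted p = 0.0114 and 0.0607). The Lipa call was lost without any 1 library of C cells or either replica of induced P cells (edgeR adjusted p from 0.108 to 0.242).

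Genes that pass hormone signals to the lipases changed in both directions. Of 15 tested, 5 rose and 3 fell in C cells and 4 rose and 3 fell in P cells. Among all genes tested, 10.7% rose and 9.68% fell in C cells, and 7.65% rose and 10.4% fell in P cells. The phosphodiesterase genes that lower cyclic AMP were among those that rose: Pde3b by 1.89 in C cells, 2.18 in P cells, and Pde4d by 2.96 and 1.58 (edgeR adjusted p between 1.2e-04 and 0.00126). Prkar2b, a regulatory subunit of protein kinase A, fell by 2.25 and 2.10 (edgeR adjusted p = 2.9e-04 and 5.6e-04). Npr1, the receptor through which natriuretic peptides raise lipolysis, fell by 1.25 in C cells, by 2.56 in P cells, and at day 1 it was at 0.598 to 0.747 CPM in P cells against 2.64 to 3.42 CPM in C cells (edgeR adjusted p = 0.0265 for that difference). The Npr1 difference lost its call without any 1 library of day 1 (edgeR adjusted p from 0.107 to 0.261), and the fall in C cells without either replica of uninduced C cells or replica 1 of induced C cells (0.14 to 0.172). At day −2, Prkg1 and Adcy6 were higher in P than in C cells, by 2.88 ± 0.59 and 1.29 ± 0.31 (edgeR adjusted p = 0.0419 and 0.0662). Prkg1 lost its call without either replica of uninduced C cells (edgeR adjusted p = 0.296 and 0.3). Adcy6 was 0.76 and not called without replica 1 of uninduced P cells and 1.67 without replica 2, and its call was lost in 7 of the 8 fits that leave out 1 library (edgeR adjusted p up to 0.396).

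**Figure D5:**
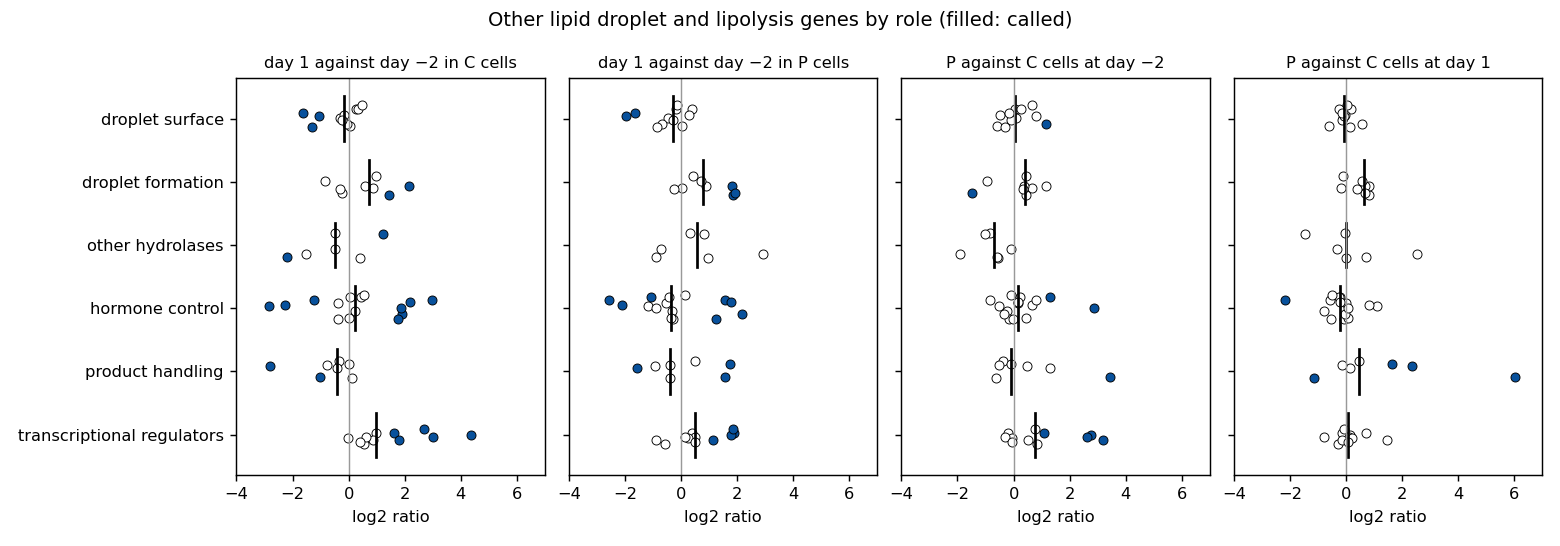
Log2 ratio of 58 other lipid droplet and lipolysis genes by role in the 4 comparisons; each point is a gene, filled where called, and black lines are medians. Of the 5 called at day 1 in the comparison of P with C cells, 4 handle the products of lipolysis, with Fabp4 farthest right at 6.01.

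Of the 7 tested genes that handle the products of lipolysis, 3 were higher and 1 was lower in P than in C cells at day 1. Among all genes tested, 1.83% were called higher and 2.23% lower in that comparison. Fabp4, the fatty acid binding protein of fat cells, was at 2.07 to 2.35 CPM in uninduced C cells and 19.8 to 28.4 CPM in uninduced P cells, and at 0.789 to 1.39 CPM in induced C cells and 67.4 to 74.3 CPM in induced P cells. It thus went down in C cells, by 1.01 on the log2 scale, and up in P cells, by 1.56 ± 0.27 (edgeR adjusted p = 0.0602 and 0.009). The fall of Fabp4 in C cells was −0.63 to −1.47 with 1 library left out and lost its call in 6 of the 8 such fits. Fabp5, its broadly made relative, fell by 2.82 in C cells to 15.1 to 15.6 CPM (edgeR adjusted p = 8.0e-05). In P cells Fabp5 went from 138 to 162 CPM to 78.1 to 79.9 CPM, a log2 ratio of −0.92 that passed on p but not on the ratio (edgeR adjusted p = 0.00531). Acsl1, which activates fatty acids for storage, was at 19.7 to 21.0 CPM in induced C cells and 61.9 to 63.2 CPM in induced P cells, a difference not called without replica 2 of either condition (edgeR adjusted p = 0.101 and 0.106). Cpt1a, which admits fatty acids to mitochondria, was the 1 lower in induced P cells, by 1.14 on the log2 scale (edgeR adjusted p = 0.014), which was not called without any 1 library of day 1 (adjusted p from 0.116 to 0.186). Cavin1 fell by 1.57 with induction in P cells (edgeR adjusted p = 0.0714), but it was at −0.41 and not called without replica 1 of uninduced P cells and at −2.21 without replica 2, and the call was kept in only 1 of the 8 fits that leave out 1 library.

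Of 11 tested transcriptional regulators of these genes, 5 rose in C cells and 4 in P cells, with 0 falling. Among all genes tested, 10.7% rose and 9.68% fell in C cells, and 7.65% rose and 10.4% fell in P cells. Foxo1, known to act on Pnpla2, rose by 2.67 in C cells and 1.85 in P cells (edgeR adjusted p = 1.5e-04 and 7.1e-04). Pparg, the nuclear receptor that acts on Plin1 and Cidec, rose by 1.89 ± 0.27 in P cells (edgeR adjusted p = 0.00433). In C cells Pparg was at 0.96 ± 0.26 and missed the call by its ratio (edgeR adjusted p = 0.0369), and the difference between the responses was not called (adjusted p = 0.324). Cebpa was at 0.757 to 0.842 CPM in uninduced C cells and 3.39 to 7.51 CPM in uninduced P cells, and at 16.4 to 16.9 CPM and 17.5 to 19.1 CPM at day 1. Cebpd was likewise higher in P than in C cells before induction, by 2.63 ± 0.34 (edgeR adjusted p = 0.00819), a call lost without replica 1 of uninduced C cells (adjusted p = 0.117). The log2 ratio of Cebpa before induction was 2.75, and 2.08 or 3.23 without replica 1 or 2 of uninduced P cells, and its call was lost without either replica of uninduced C cells (edgeR adjusted p = 0.159 and 0.143). None of the 11 was called between P and C cells after induction by edgeR at an adjusted p under 0.1 and a ratio outside 0.5 to 2. In that comparison 4.06% of all genes were called.

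Some genes outside the members had closely similar patterns over the 8 libraries, measured by the root mean square (RMS) difference between log2 CPM values centred on each gene's mean. Klf9 and Zhx3 lay nearest to Lipe (RMS 0.134 and 0.14), Nfil3 and Btg1 nearest to Abhd5 (0.159 and 0.217), and Arhgap44 was close to Pnpla2 (0.177). The low genes had looser neighbours: Gpd1 and Adipoq for Cidec (0.523 and 0.597), Gpd1 and Fgfr3 for G0s2 (0.646 and 0.649), and 4930550L24Rik and Fabp4 for Plin1 (0.725 and 0.748). Gpd1, which makes the glycerol 3-phosphate of triglyceride, was thus nearest to both Cidec and G0s2.

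Markers of fat cells moved with the members that set P cells apart. Of 9 such markers, which hold none of the members, 8 were tested. In P cells 8 rose with induction, beside 7.65% of all genes tested. In C cells 1 rose and 2 fell, beside 10.7% and 9.68% of all genes. P cells exceeded C cells in 4 at day −2 and 6 at day 1, beside 4.83% and 1.83% of all genes. With 0 lower at either time, the shares of all genes called lower were 2.15% and 2.23%. Adipoq, Retn, Cfd, Slc2a4 and Cd36 passed the filter on low counts through libraries of P cells, where they are high. Counts of these markers are thus only a description. Lep, the leptin gene, had 0 to 3 counts in every library. The preadipocyte list of 10 genes summed to 12401 to 13663 CPM in uninduced C cells and 18168 to 70396 CPM in uninduced P cells, and to 16481 to 21587 CPM in induced C cells and 14538 to 14589 CPM in induced P cells. The collagen genes make up most of that sum, with Col1a1 at 4882 to 23560 CPM, Col1a2 at 7431 to 28501 CPM and Col3a1 at 3904 to 15766 CPM in uninduced P cells. The preadipocyte genes went in both directions with induction. In C cells 4 were called higher and 2 lower, beside 10.7% and 9.68% of all genes. In P cells 3 were called higher and 4 lower, beside 7.65% and 10.4%. Pdgfra and Dlk1 rose in both kinds of cell, by 1.05 to 1.91 on the log2 scale (edgeR adjusted p between 2.5e-04 and 0.0069). Pdgfrb was lower after induction in both, at log2 ratios of −1.58 in C cells and −2.85 in P cells (edgeR adjusted p = 0.00257 and 4.7e-04). The part of these lists in the differences between P and C cells was not tested.

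Brown fat markers summed to 6.73 to 8.53 CPM at day −2 and 20.2 to 24.6 CPM at day 1 over both kinds of cell, and 4 of 7, with Ucp1 and Elovl3 among them, were too low to be tested, as was Cidea. Of the 3 tested, Dio2 rose, from 0.797 to 1.53 CPM to 12.8 to 16.6 CPM over both kinds of cell (edgeR adjusted p = 2.7e-04 in C cells, 5.0e-04 in P cells), and Ppargc1a and Cpt1b were not called. Macrophage markers summed to 5.09 to 22.2 CPM, and endothelial, epithelial and skeletal muscle markers to 3.31 CPM or less in each library.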

How the data were processed

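RNA was sequenced by Ion-Torrent from 8 cultures of 3T3-L1 cells, 2 replicas in each of 4 conditions. The authors removed read artifacts with FASTX-Toolkit, aligned reads to mm9 with TopHat2 2.0.9 (submitters' processing notes) and deposited whole-number counts per gene, keyed by NCBI gene ID. The study's methods name the R libraries GenomicFeatures, GenomicRanges and GenomicAlignments for counting, on refGene of UCSC; strand use is not given in the sources used here. RefSeq (GRCm38.p6) gave symbols for 23929 of 24013 IDs and overlapping genes by name; 84 IDs had none.

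Here, counts were filtered (filterByExpr), scaled by TMM and fitted over all 4 conditions with edgeR 4.0.16 (limma 3.58.1, R 4.3.3), using the quasi-likelihood test and Benjamini-Hochberg adjustment over 13339 genes. A call needed an adjusted p under 0.1 and a ratio above 2 or below 0.5; a difference between responses needed the p alone. CPM use TMM-scaled totals. Depth was 20428816 to 27614353 counts, and 3 counts, taken as the floor, are 0.107 to 0.16 CPM. With 3 counts or fewer in each library of both groups no fold is reported as a change; other low ratios have exact 95% intervals of summed counts, for counting error only. Alternatives were DESeq2 1.42.0, other scalings, filters and thresholds, a replicate block and leaving out each replica. Scripts were tested on simulated data.

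The members and lists were chosen with earlier results of these data known. All members are named. From each role group of the other genes, the named genes are the 2 with the smallest p among those called in each direction of a comparison, with at most 3 by the difference between responses, and 2 nearest patterns per called member, of which 1 is not reported here. The replicas are described as biological. The p-values rest on 1 estimate per gene of the spread between replicas, shared by all 4 conditions. That estimate does not follow the wider spread of uninduced P cells (SD 0.795, against 0.121 to 0.261 in the other conditions). Same-numbered replicas deviated in opposite directions in 5 of 6 pairs of conditions, so the numbers were not taken to pair samples. Levels per transcript length, and sequences, are not given here.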

Additional observations from a re-analysis of the deposited data

Results flagged for a closer look

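For 8 genes, the change from day −2 to day 1 differed between P and C cells by the test of that difference itself. The same test called 2.37% of all genes. For Cidec the log2 difference was 4.51 ± 0.50 (SE; edgeR adjusted p = 0.013), with a response of 1.59 in C cells and 6.10 in P cells. For Fabp5 it was 1.89 ± 0.20 (edgeR adjusted p = 0.011), with −2.82 in C cells and −0.92 in P cells. For Acsl1 it was 1.73 ± 0.24 (edgeR adjusted p = 0.0276), with 0.01 in C cells and 1.73 in P cells. For Gpat3 it was 2.16 ± 0.32 (edgeR adjusted p = 0.0328), with −0.23 in C cells and 1.93 in P cells. For Fabp4 it was 2.57 ± 0.42 (edgeR adjusted p = 0.0462), with −1.01 in C cells and 1.56 in P cells. The other 3 had the smaller response in P cells. For Pde4d the difference was −1.37 ± 0.23 (responses 2.96 and 1.58; edgeR adjusted p = 0.0465), for Cebpd −2.53 ± 0.45 (3.02 and 0.49; adjusted p = 0.0617) and for Cebpa −2.61 ± 0.52 (4.37 and 1.76; adjusted p = 0.0836); without replica 1 or 2 of uninduced P cells the value for Cebpa was −1.97 or −3.09. Cebpd and Cebpa were apart at day −2 and close at day 1. The means of Cebpd were 48.7 CPM in P cells and 7.85 CPM in C cells at day −2, and 68.5 and 63.8 CPM at day 1. Those of Cebpa were 5.45 and 0.799 CPM at day −2, and 18.3 and 16.6 CPM at day 1. The 8 differences have uninduced P cells in them, whose replicas stood apart from each other. Each lost its call without either replica of uninduced C cells or of induced P cells, and those of genes other than Cidec and Fabp5 also without either replica of induced C cells.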

How the results depend on the processing

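Over the members' log2 ratios, 696 values under other settings kept their direction and their side of the threshold, 16 lost a call, 15 gained one and 14 turned sign. With at least 10 counts required in every library, which removes Plin1, Cidec and G0s2, 3 members were called for induction in P cells, 0 for P against C cells at day −2, 1 at day 1 and 0 for the difference between responses. Fitting only the 2 conditions compared left 0 members at day −2 and 1 gene of the other list. Without a threshold on the ratio, 15 of the other list were called at day −2. For the difference between responses, library totals called 3 members, DESeq2 4 and no filter 2, and DESeq2 called 13 of the other list; the cause was not tested. Leaving out 1 library, whose partner is then assumed to vary like the other groups, gave 0 to 2 members at day −2 and 0 to 5 for the difference between responses, and 1 to 23, 2 to 6 and 0 to 45 of the other list at day −2, at day 1 and for the difference between responses. The highest counts at day −2 and for the difference between responses in the other list, 23 and 45, came without replica 2 of P cells at day −2. Of the other list, 1 and 2 were called at day −2 without replica 1 and 2 of C cells of that day and 5 without any 1 library of day 1, 2 to 3 were called at day 1 without any 1 library of that day, and 0 for the difference between responses without either replica of uninduced C or induced P cells.

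Among the uncalled values that turned sign, induction in C cells gave −0.57 to 0.91 for Plin1 and −0.35 to 0.17 for G0s2 with 1 library left out, fitted values that rest on 3 counts or fewer in each library. The difference between responses was −0.083 to 0.18 for Plin2 and −0.18 to 0.26 for Lipe, and the log2 ratio for P against C cells before induction −0.13 to 0.40 for Pnpla2 and −0.25 to 0.49 for Abhd5. With library totals, Plin3 was −0.0032 for induction in C cells and Pnpla2 −0.053 for P against C cells before induction. Library totals set the median of all genes between −0.175 and 0.287 on the log2 scale and moved the share of calls that were higher from 42.4% to 54.5% for induction in P cells, from 69.2% to 55.4% at day −2 and from 18.4% to 31.6% for the difference between responses.

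With the replicate number as a block, 3 of the other list were called for the difference between responses, and 4 with the numbers of P cells at day 1 crossed, against 7 without a block. The crossed block was added after the data were seen. Per-length perilipin shares and per-length ratios to Pnpla2 were not run, as transcript lengths were not used here.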
